A study of Mus musculus with 9 samples.

Results

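Transcripts of 10 fatty acid synthesis genes were followed in brown adipose tissue, namely Fasn, Acaca, Acacb, Acly, Scd1, Scd2, Elovl6, Srebf1, Mlxipl and Me1. They were chosen by name from the textbook pathway, with earlier results of these data known. All 10 were among the 16937 genes that the deposited tables list, and all 10 were tested in every comparison. RNA came from 9 adult mice on the C57Bl/6J background, 12 to 23 wk old, with 3 mice in each of 3 groups. Wild-type mice kept at 23 °C formed the WT RT group, wild-type mice moved to 4 °C for 8 h formed WT Cold, and whole body Gcn2-/- mice moved to 4 °C for 8 h formed GCN2 KO Cold. All mice were reared at 23 °C and housed singly for 5 days beforehand, and a knockout group at 23 °C was not analysed here. Each group held mice of both sexes, the labels do not say which mouse was which, and no comparison was adjusted for sex. The comparisons address how acute cold alters transcript levels in the tissue, and whether they differ in the cold when GCN2, an amino acid sensing kinase encoded by Eif2ak4, is deleted in all tissues.

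Fatty acids are built in the cytosol from acetyl-CoA. ATP-citrate lyase (Acly) cleaves citrate exported from mitochondria to give acetyl-CoA, and acetyl-CoA carboxylase carboxylates it to malonyl-CoA. Fatty acid synthase (Fasn) joins these units into palmitate with NADPH, part of which malic enzyme (Me1) provides. Elovl6 lengthens palmitate to stearate, and the stearoyl-CoA desaturases Scd1 and Scd2 introduce the first double bond. Transcription of the pathway is driven by SREBP1, the product of Srebf1, and by the carbohydrate response factor ChREBP, the product of Mlxipl. Brown adipocytes burn fatty acids for heat and are also known for high rates of fatty acid synthesis.

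RefSeq promoter windows, 250 bases before to 50 bases after an annotated start on GRCm38.p6, were found for 8 of the 10 genes, 12 windows in all. The 4 windows shown belong to the gene that fell most in the cold (Acly), to the synthase itself (Fasn), to a transcription factor of the pathway (Mlxipl) and to the gene that fell least (Elovl6). Capitals mark matches on either strand to 4 motifs, namely the E-box CACGTG, the CCAAT box, the GC box GGGCGG and the sterol regulatory element TCACNCCAC.
Acly, chr11:100527951-100528250, minus strand: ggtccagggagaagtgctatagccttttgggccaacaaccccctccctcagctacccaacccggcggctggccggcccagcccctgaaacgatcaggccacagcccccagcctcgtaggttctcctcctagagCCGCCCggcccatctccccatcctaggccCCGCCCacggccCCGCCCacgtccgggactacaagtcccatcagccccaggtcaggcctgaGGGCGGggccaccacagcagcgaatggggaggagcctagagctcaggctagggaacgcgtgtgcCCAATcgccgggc
Fasn, chr11:120824498-120824797, minus strand: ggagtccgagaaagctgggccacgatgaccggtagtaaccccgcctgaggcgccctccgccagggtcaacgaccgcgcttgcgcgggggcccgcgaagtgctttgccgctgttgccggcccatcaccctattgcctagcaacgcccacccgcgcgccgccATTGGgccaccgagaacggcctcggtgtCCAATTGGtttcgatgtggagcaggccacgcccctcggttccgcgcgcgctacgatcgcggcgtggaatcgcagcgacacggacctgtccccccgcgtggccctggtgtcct
Mlxipl, chr5:135089640-135089939, plus strand: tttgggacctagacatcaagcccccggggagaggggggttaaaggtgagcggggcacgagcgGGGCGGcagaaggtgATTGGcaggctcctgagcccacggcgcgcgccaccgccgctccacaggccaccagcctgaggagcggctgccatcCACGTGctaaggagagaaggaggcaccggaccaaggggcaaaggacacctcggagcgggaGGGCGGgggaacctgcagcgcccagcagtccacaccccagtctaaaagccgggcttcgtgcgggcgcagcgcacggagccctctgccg
Elovl6, chr3:129532136-129532435, plus strand: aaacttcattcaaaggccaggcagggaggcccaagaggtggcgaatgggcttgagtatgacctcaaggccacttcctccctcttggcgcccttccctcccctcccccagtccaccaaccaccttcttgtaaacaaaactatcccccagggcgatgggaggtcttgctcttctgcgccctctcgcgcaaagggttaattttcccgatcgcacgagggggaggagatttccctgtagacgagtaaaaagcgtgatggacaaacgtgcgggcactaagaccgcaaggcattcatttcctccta
The Acly window held 4 GC boxes and a single CCAAT box, which begins 38 bases past the start. The Fasn window held 3 CCAAT matches, which begin 90, 62 and 59 bases before the start, and the last 2 overlap each other. This Mlxipl window was the only one of the 12 with an E-box, which begins 98 bases before the start. The other Mlxipl window was the only one with the sterol element. The Elovl6 window held none of the 4 motifs, nor did the single Acaca window. Of the 12 windows, 7 (58.3%) held a CCAAT box, 5 (41.7%) a GC box, and 1 each (8.33%) the E-box and the sterol element. Among all 32851 windows of this length, 37.4% held a CCAAT box, 35.7% a GC box, 7.15% an E-box and 1.24% the sterol element. These matches describe letters in the windows and were not tied to any factor.

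Depth ran from 27058799 to 30768064 reads per library. Since the columns do not name mice, libraries of a group carry the letters A, B and C. The codes of the WT RT libraries start differently from those of both cold groups, so cold and a difference between sets of libraries cannot be told apart. Eif2ak4 measured 347, 371 and 350.0 normalized counts in the GCN2 KO Cold libraries, and 171, 225 and 231 in WT Cold. The title of 1 GCN2 KO Cold sample also names WT, and the sample was placed by its genotype entry, with no way to tell which library it gave. The Eif2ak4 values go against the knockout label, although which exons the allele lacks is not given in the sources used here. These 3 libraries are therefore called labelled KO Cold, and every direction drawn from them rests on the label. Markers of brown adipocytes were abundant. Their 12 genes summed to 20217 to 21765 CPM in WT RT, 26104 to 28369 in WT Cold and 30751 to 31222 in labelled KO Cold. Of the 12, 3 were called higher and 1 lower in WT Cold than at 23 °C, against 2.99% and 5.15% of all genes. RNA of other cells was present as well, and no marker in the tables was at 0. Summed over 4 hepatocyte genes, CPM ran from 2236 to 2961 in WT RT, 1050.1 to 4770.0 in WT Cold and 1589 to 3497 in labelled KO Cold, with the lowest value in WT Cold A and the highest in WT Cold C. Over 9 skeletal muscle genes the sums were 2465 to 2985, 2312 to 3827 and 292 to 1365 CPM, and over 6 macrophage genes 308 to 523, 139 to 210.1 and 104 to 162 CPM in the same order of groups. For 6 white adipocyte genes they were 224 to 236, 206 to 234 and 113 to 176 CPM. Macrophage sums were thus lower in both cold groups than in WT RT. By the test used below, 3 of the 6 markers were called lower in WT Cold and none higher, where 5.15% of all genes were called lower. Muscle and white adipocyte sums were lowest in labelled KO Cold. The sums were 163 to 199.7, 209 to 251 and 182 to 240.3 CPM for 7 Schwann cell genes and 501 to 553, 585 to 715 and 472 to 574 CPM for 5 endothelial genes. The 4 of 7 epithelial genes in the tables summed to 117 to 271, 251 to 381 and 165 to 389 CPM. What part these cells had in the results was not tested. In bulk tissue, fewer cells of a type and less RNA per cell cannot be told apart.

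In WT RT the pathway was expressed at very unequal levels. As RPKM, which divides CPM by the exon length in kilobases, Scd1 stood highest at 5683 ± 819 (SD, n = 3), followed by Fasn at 1507 ± 184, Acly at 738 ± 125 and Me1 at 340.4 ± 50.5, with no overlap between neighbours in this order. Elovl6 at 167 ± 6.0, Acaca at 152 ± 14.8 and Acacb at 123 ± 17.1 came next on the same scale, and each overlapped its neighbour. Scd2 at 35.4 ± 8.19, Mlxipl at 35.4 ± 5.71 and Srebf1 at 35.1 ± 4.89 were lowest and could not be ordered. The plot of CPM by library shows these levels and how each group sat within them.

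**Figure D1:**
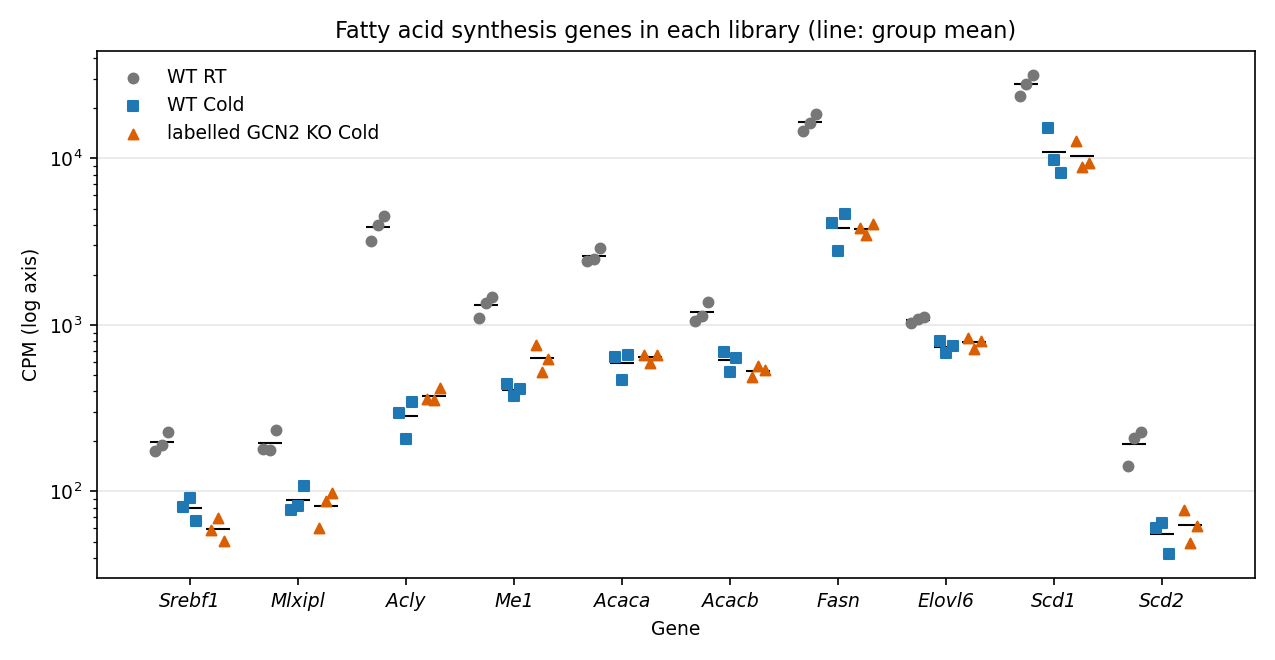
CPM of each of the 10 genes (log axis) in the 3 libraries of each group (circles WT RT, squares WT Cold, triangles labelled KO Cold), with group means as black lines. For all 10 genes every cold library of either group lies below every WT RT library, with the widest gap for Acly and the narrowest for Elovl6.

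All 10 genes were lower in the cold. Every WT Cold library lay below every WT RT library for each of them, as it did for 22.8% of all genes. The tests used limma on log2(normalized count + 1), and a called gene changed by more than 1 on the log2 scale in either direction at an adjusted p under 0.05. By both thresholds 8 of the 10 genes were called lower in WT Cold and none higher, while 5.15% of the 16679 genes tested were called lower. All 10 passed on adjusted p alone, against 14.1% of all genes in that direction. The median log2 fold change over the 10 genes was -1.44, beside 0.0029 over all genes. edgeR and DESeq2, run on the recovered reads, each called 8 of the 10 lower, against 5.26% and 5.28% of all genes.

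Both transcription factors fell. Srebf1 (ENSMUSG00000020538) encodes SREBP1, which insulin and sterol regulators control through cleavage of its membrane-bound precursor. It measured 175, 191 and 228 CPM in the WT RT libraries, 80.7, 92.0 and 66.5 CPM in WT Cold and 59.1, 69.4 and 50.7 CPM in labelled KO Cold. Every cold library was below the lowest WT RT library, and Srebf1 fell in WT Cold (limma, log2 fold change -1.23, SE 0.15, adjusted p = 0.00129). Mlxipl (ENSMUSG00000005373) encodes ChREBP, which binds DNA with its partner Mlx when glucose is plentiful. It measured 179, 177 and 233 CPM in the WT RT libraries, 77.2, 82.2 and 107 CPM in WT Cold and 60.4, 87.1 and 97.3 CPM in labelled KO Cold. Its fall in WT Cold was close to the fold threshold (limma, log2 fold change -1.06, SE 0.18, adjusted p = 0.00452), and it missed that threshold without WT RT C (-0.90) or without WT Cold A (-0.95). Counts per gene do not separate the isoforms that start at the different promoters of either factor. The transcript of its partner Mlx had a log2 fold change of 0.47 (adjusted p = 0.0759 with limma, 0.0276 with DESeq2 and 0.00243 with limma without WT Cold C), below the fold threshold throughout.

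Among the members, the Acly transcript showed the deepest fall, and acetyl-CoA itself was not measured. Acly (ENSMUSG00000020917) encodes the enzyme that releases acetyl-CoA from citrate. It measured 3199, 3978 and 4515 CPM in the WT RT libraries, 294, 208 and 346 CPM in WT Cold and 357, 352 and 419 CPM in labelled KO Cold. No other member fell as far, and WT Cold kept 7.25% of the WT RT mean (limma, log2 fold change -3.72, SE 0.21, adjusted p = 8.33e-05). Its range with any library left out was -3.90 to -3.51. Me1 (ENSMUSG00000032418) encodes cytosolic malic enzyme, a source of NADPH. It measured 1097, 1354 and 1478 CPM in the WT RT libraries, 439, 372 and 414 CPM in WT Cold and 754, 522 and 629 CPM in labelled KO Cold. The 3 groups did not overlap for Me1, and labelled KO Cold lay between the other groups. In WT Cold against WT RT it fell (limma, log2 fold change -1.59, SE 0.13, adjusted p = 0.000371).

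The 2 carboxylases fell by different amounts. Acaca (ENSMUSG00000020532) encodes the cytosolic carboxylase that feeds synthesis. It measured 2404, 2483 and 2877 CPM in the WT RT libraries, 644, 469 and 657 CPM in WT Cold and 662, 592 and 663 CPM in labelled KO Cold. It fell in WT Cold to 22.8% of the WT RT mean (limma, log2 fold change -2.06, SE 0.16, adjusted p = 0.000247). Acacb (ENSMUSG00000042010) encodes the form at the mitochondrial surface, whose malonyl-CoA restrains fatty acid oxidation. It measured 1060.2, 1130.0 and 1373 CPM in the WT RT libraries, 687, 524 and 631 CPM in WT Cold and 490.0, 564 and 537 CPM in labelled KO Cold. WT Cold kept 51.7% of the WT RT mean of Acacb, which passed on adjusted p and not on fold (limma, log2 fold change -0.87, SE 0.15, adjusted p = 0.00473). The reads of Acaca per read of Acacb compare the 2 genes within a library and do not depend on scaling. This ratio was 2.27, 2.20 and 2.10 in WT RT, 0.938, 0.896 and 1.04 in WT Cold and 1.35, 1.05 and 1.23 in labelled KO Cold. Means were 2.19 ± 0.0864, 0.958 ± 0.0752 and 1.21 ± 0.153 (SD, n = 3 each), and no pair of groups overlapped. An exact permutation test of the log ratio gave two-sided p = 0.1 in all 3 comparisons, the smallest p that 3 against 3 allows, and 0.3 after Benjamini-Hochberg adjustment over the 9 ratio tests made.

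Fatty acid synthase followed Acaca closely. Fasn (ENSMUSG00000025153) carries all the catalytic steps from malonyl-CoA to palmitate on a single protein. It measured 14549, 16376 and 18577 CPM in the WT RT libraries, 4099.7, 2776 and 4659 CPM in WT Cold and 3824, 3456 and 4032 CPM in labelled KO Cold. Cold libraries were all far below WT RT, with WT Cold B the lowest, and Fasn fell in WT Cold (limma, log2 fold change -2.04, SE 0.22, adjusted p = 0.000785). With any library left out the log2 fold change stayed between -2.22 and -1.82. Without WT Cold C it was -2.22. The reads of Fasn per read of Acaca were 6.05, 6.59 and 6.46 in WT RT, 6.37, 5.92 and 7.09 in WT Cold and 5.77, 5.84 and 6.08 in labelled KO Cold. WT RT and WT Cold overlapped, and the exact permutation test gave two-sided p = 1 for WT Cold against WT RT and 0.2 for each other comparison (n = 3 per group). Over the 9 libraries, centred log2(CPM + 1) profiles of Fasn and Acaca differed by a root mean square of 0.091, the smallest distance from Fasn among the members, where Scd2 was next at 0.417 and Elovl6 farthest at 0.784.

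**Figure D2:**
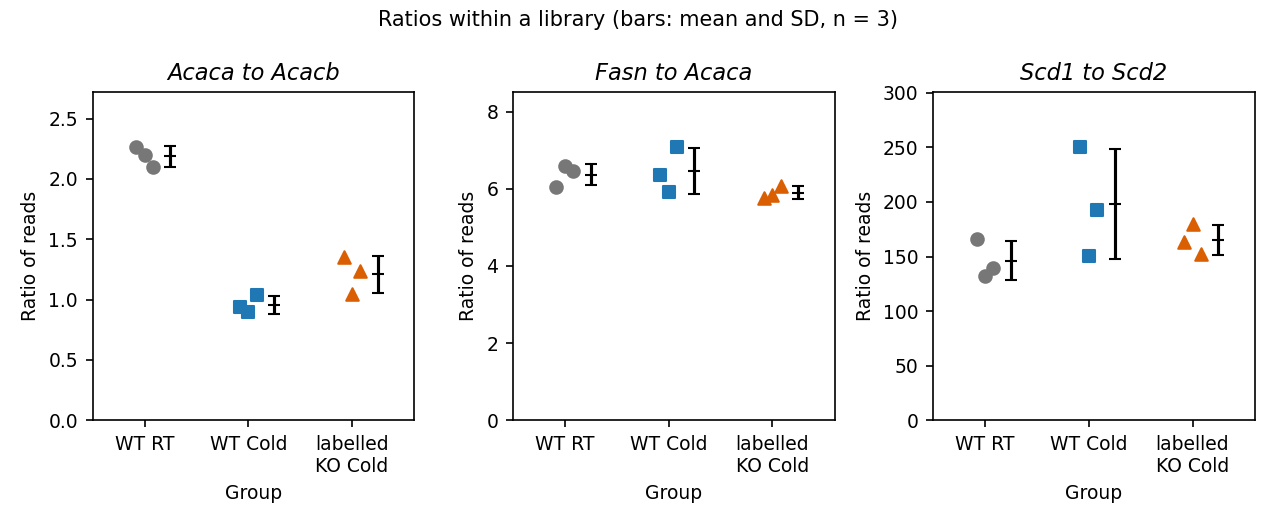
Ratio of reads of Acaca to Acacb, Fasn to Acaca and Scd1 to Scd2 within each library (linear axes from 0), with the group mean and SD at the right of the points (n = 3). The Acaca to Acacb ratio lies between 2.10 and 2.27 in WT RT and at or below 1.35 in every cold library, whereas the WT RT and WT Cold points of both other ratios overlap.

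Of the 10 genes, Elovl6 changed least. This gene (ENSMUSG00000041220) encodes the elongase that takes palmitate to stearate. It measured 1034, 1089 and 1108 CPM in the WT RT libraries, 806, 677 and 743 CPM in WT Cold and 839, 715 and 802 CPM in labelled KO Cold. Every cold library was below every WT RT library, but WT Cold kept 68.9% of the WT RT mean, and the fall passed on adjusted p and not on fold (limma, log2 fold change -0.46, SE 0.091, adjusted p = 0.00908).

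Both desaturases fell. Scd1 (ENSMUSG00000037071), the main desaturase of adipose tissue and liver, was the most abundant member. It measured 23775, 27841 and 31789 CPM in the WT RT libraries, 15113, 9722 and 8138 CPM in WT Cold and 12729, 8845 and 9438 CPM in labelled KO Cold. WT Cold A stood above both other WT Cold libraries, and Scd1 fell in WT Cold (limma, log2 fold change -1.29, SE 0.24, adjusted p = 0.00693). Scd2 (ENSMUSG00000025203), a close relative best known from brain, was present at far lower levels. It measured 143, 210.0 and 228 CPM in the WT RT libraries, 60.3, 64.5 and 42.2 CPM in WT Cold and 77.9, 49.2 and 62.0 CPM in labelled KO Cold. It fell in WT Cold as well (limma, log2 fold change -1.71, SE 0.21, adjusted p = 0.00148). The 2 genes are similar in sequence, and only unique reads were counted. The ratio of Scd1 to Scd2 reads was 146 ± 17.8 in WT RT and 198 ± 50.2 in WT Cold (SD, n = 3), groups that overlapped (exact permutation test, two-sided p = 0.2).

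Because Scd1 and Fasn are so abundant, the fall was visible in the make-up of the whole library. Together the 10 genes took 4.76, 5.48 and 6.24% of all reads in the WT RT libraries, 2.23, 1.499 and 1.58% in WT Cold and 1.99, 1.53 and 1.67% in labelled KO Cold. Group means were 5.50 ± 0.74%, 1.77 ± 0.40% and 1.73 ± 0.23% (SD, n = 3). Cold libraries of both groups overlapped each other and lay well below WT RT. Scd1 and Fasn made up 80.5 to 86.2% of this sum. The share of Fasn alone was 30.6, 29.9 and 29.8% of the sum in WT RT and 18.4, 18.5 and 29.5% in WT Cold, where WT Cold C differed from A and B.

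**Figure D3:**
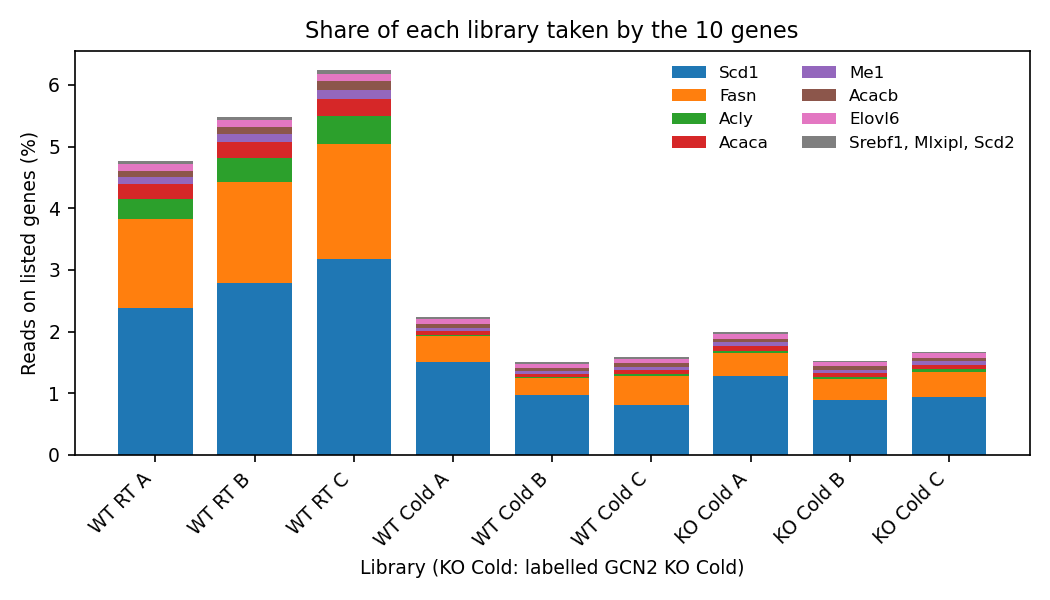
Percent of all reads of each library (linear axis from 0) that fell on the 10 genes, stacked by gene, for WT RT, WT Cold and labelled KO Cold. WT RT libraries reach 4.76, 5.48 and 6.24%, and no cold library exceeds 2.23%.

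None of the 10 genes was called between labelled KO Cold and WT Cold, by limma, edgeR or DESeq2, where 0.257%, 0.202% and 1.28% of the 16312 genes were called. At an unadjusted limma p under 0.05 there were 2 of the 10, both higher, against 7.83% of all genes in that direction. The count ran from 1 to 3 higher and 0 to 1 lower with a library left out. With CPM scaling it was 2 higher and 1 lower, against 2.81% and 15.6% of all genes, and 2 and 1 again with all 3 groups in the fit, against 3.38% and 17.2%. With the deposited scaling the 2 were Me1 and Acly, which were also the only members for which every labelled KO Cold library lay above every WT Cold library, as 11.3% of all genes did. Me1 had 635 ± 116 CPM against 408 ± 33.5 CPM (SD, n = 3), a log2 fold change of 0.74 with a 95% interval of 0.43 to 1.05. Its adjusted p was 0.0801 with limma, 0.0731 with edgeR and 9.68e-05 with DESeq2, so that only DESeq2 put it under 0.05 and no tool put it over the fold threshold. Acly had 376 ± 37.3 against 283 ± 69.9 CPM, with a log2 fold change of 0.56, an interval of 0.12 to 0.99 and a limma adjusted p of 0.222. Its log2 fold change was 0.35 without WT Cold B and at most 0.73 with another library left out.

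With the deposited scaling the other 8 genes had intervals that span 0. Srebf1 stood at -0.41 with CPM scaling and with all 3 groups in the fit (limma adjusted p = 0.212 and 0.158). The median of all genes was -0.095 and -0.096 there. Srebf1 was the 1 member lower at an unadjusted p under 0.05 in those fits. The intervals that follow are from the deposited scaling. For Fasn the log2 fold change between the 2 cold groups was 0.12 with an interval of -0.33 to 0.57, and for Scd1 it was 0.060 with an interval of -0.49 to 0.61. Those of Acaca (-0.075 to 0.57), Acacb (-0.35 to 0.17), Elovl6 (-0.020 to 0.42) and Srebf1 (-0.64 to 0.042) exclude a doubling or a halving, as do those of Fasn, Scd1, Scd2 (-0.17 to 0.76) and Mlxipl (-0.50 to 0.46). The signs for Scd1, Fasn and Mlxipl turned with a library left out or, for Scd1, with another scaling.

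The comparison of labelled KO Cold with WT RT used the same 3 WT RT libraries, so it is no independent repeat of the one above, and its own values follow. Every labelled KO Cold library was below every WT RT library for all 10 genes, as for 25.5% of all genes. By both thresholds 7 of the 10 were called lower, against 7.58% of the 16560 genes tested, and 9 passed on adjusted p alone, against 17.8%. The median log2 fold change was -1.32, beside 0.0091 over all genes. Acly fell most at -3.16 (SE 0.15, limma adjusted p = 2.26e-05), and Fasn was at -1.92 (SE 0.16, adjusted p = 0.000184). Acaca stood at -1.81, Srebf1 at -1.53, Scd2 at -1.41, Scd1 at -1.23 and Mlxipl at -1.08, all called lower with adjusted p of at most 0.00404. Mlxipl missed the fold threshold without WT RT C (-0.92), and did so without the A library of the cold group (-0.87). Acacb at -0.95 (adjusted p = 0.00124) and Me1 at -0.85 (adjusted p = 0.00526) passed on adjusted p and not on fold. Scaling to CPM in place of size factors shifted the median of all genes by -0.16 here and took both past the fold threshold, at -1.15 and -1.05. Acacb also passed it without WT RT A (-1.04), and narrowly without WT RT B (-1.005) and without the B library of the cold group (-1.002). Elovl6 at -0.25 had an adjusted p of 0.0671 with limma, 0.0458 with edgeR and 0.0475 with DESeq2. With CPM scaling and with all 3 groups in the fit it stood at -0.46, with adjusted p of 0.00398 and 0.00285.

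**Figure D4:**
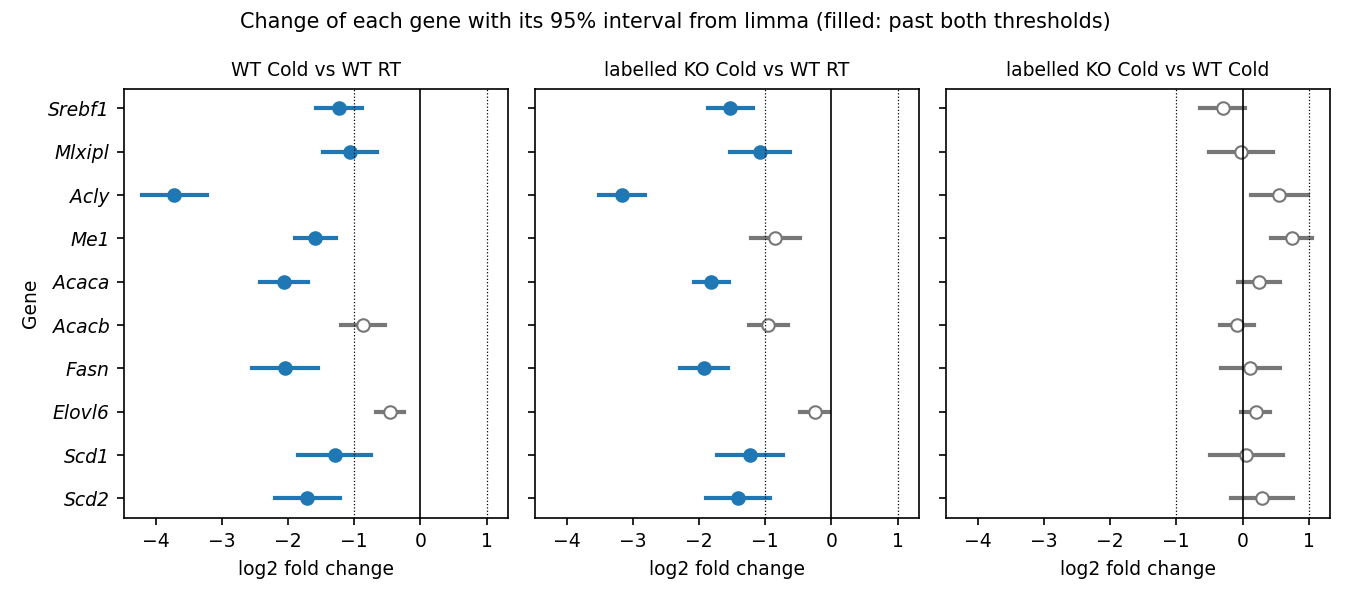
Log2 fold change of each gene with its 95% interval from limma in WT Cold vs WT RT, labelled KO Cold vs WT RT, and the latter vs WT Cold, with filled points past both thresholds and dotted lines at a log2 fold change of -1 and 1. Acly lies farthest left in both comparisons with WT RT, and in the comparison of the 2 cold groups only the intervals of Me1 and Acly lie wholly above 0.

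Genes that supply citrate, acetate and NADPH to the pathway fell with it in part. Of 9 such genes, 4 were called lower in WT Cold and none higher, against the same background of 5.15%, with a list median of -0.97. Acss2, which makes acetyl-CoA from acetate, went from 478 ± 25.3 to 84.3 ± 6.71 CPM (limma, log2 fold change -2.42, SE 0.091, adjusted p = 2.12e-05). Slc25a1, the mitochondrial citrate carrier, fell by 1.83 on the log2 scale, and Tkt and Pgd, enzymes of the pentose phosphate pathway, had log2 fold changes of -1.86 and -1.69, all with limma adjusted p of at most 0.00049. In labelled KO Cold against WT RT these 4 genes were called lower, against 7.58% of all genes, at -1.69 for Acss2, -1.46 for Slc25a1, -1.53 for Tkt and -1.17 for Pgd. Between the 2 cold groups none of the 9 was called by limma, edgeR or DESeq2. All 9 had a positive log2 fold change there, and 7 of the 9 had an unadjusted limma p under 0.05, against 7.83% of all genes in that direction. That count ran from 6 to 8 with any library left out, and was 4 with CPM scaling and 3 with all 3 groups in the fit, where 2.81% and 3.38% of all genes were higher by that rule. Acss2 stood at 0.73 (adjusted p = 0.08 with limma, 0.000225 with DESeq2) and Pgd at 0.51 (adjusted p = 0.0564 and 0.000221).

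Partners in elongation and desaturation were mixed. Of 16 tested, 4 were called higher in WT Cold, against 2.99% of all genes, and none lower. On adjusted p alone 5 were higher and 4 lower, against 13.6% and 14.1% of all genes. The list median was 0.13, with 9 genes positive and 7 negative, and turned to -0.14, with 7 positive and 9 negative, without WT Cold C. It was 0.24 without WT Cold A, 0.087 without WT RT A and 0.048 with CPM scaling or all 3 groups in the fit. Elovl3, the elongase for very long chains that is induced in brown fat by cold, went from 219, 427 and 425 CPM in WT RT to 584, 761 and 859 CPM in WT Cold and 1274, 1281 and 812 CPM in labelled KO Cold. Its rise in WT Cold was called (limma, log2 fold change 1.17, SE 0.28, adjusted p = 0.0184), but it missed the fold threshold without WT RT A (0.84) and had an adjusted p of 0.0624 without WT Cold B and of 0.0541 without limma's mean-variance trend. Hacd2, a dehydratase of the elongation cycle, rose from 226 ± 9.92 to 604 ± 56.3 CPM (limma, log2 fold change 1.496, SE 0.090, adjusted p = 0.000104), the smallest adjusted p of this list. Elovl7 rose by 1.80 and Elovl4 by 1.15 on the log2 scale, from WT RT means of 2.23 ± 1.12 and 1.19 ± 0.399 CPM. The call of Elovl4 was lost without WT RT A, WT RT B, WT Cold A or WT Cold B, at adjusted p of 0.0727 to 0.135, and without the trend (0.0577). With CPM scaling or all 3 groups in the fit its log2 fold change was 0.68, short of the fold threshold. Elovl5, which lengthens polyunsaturated chains, had a log2 fold change of -0.81 (adjusted p = 0.00234) and passed on adjusted p only. In labelled KO Cold against WT RT, Elovl3, Hacd2 and Elovl4 were called higher, at 1.89, 1.80 and 1.74, against 3.01% of all genes called higher, and Fads3 was called lower at -1.05. Elovl4 stood at 1.03 there with CPM scaling or all 3 groups in the fit. Fads3 missed the fold threshold without WT RT B (-0.94) or WT RT C (-0.99). None of the 16 was called between the 2 cold groups, where the log2 fold change of Elovl3 was 0.72 (adjusted p = 0.189 with limma, 0.0208 with DESeq2). Elovl7 had the largest difference of the list there and the opposite sign, with 3.66 ± 2.02 CPM in labelled KO Cold against 7.18 ± 2.31 CPM in WT Cold (log2 fold change -1.01, adjusted p = 0.415). Against WT RT it stood at 0.79 in labelled KO Cold (adjusted p = 0.277), and at 1.41 (adjusted p = 0.0247) without the B library.

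**Figure D5:**
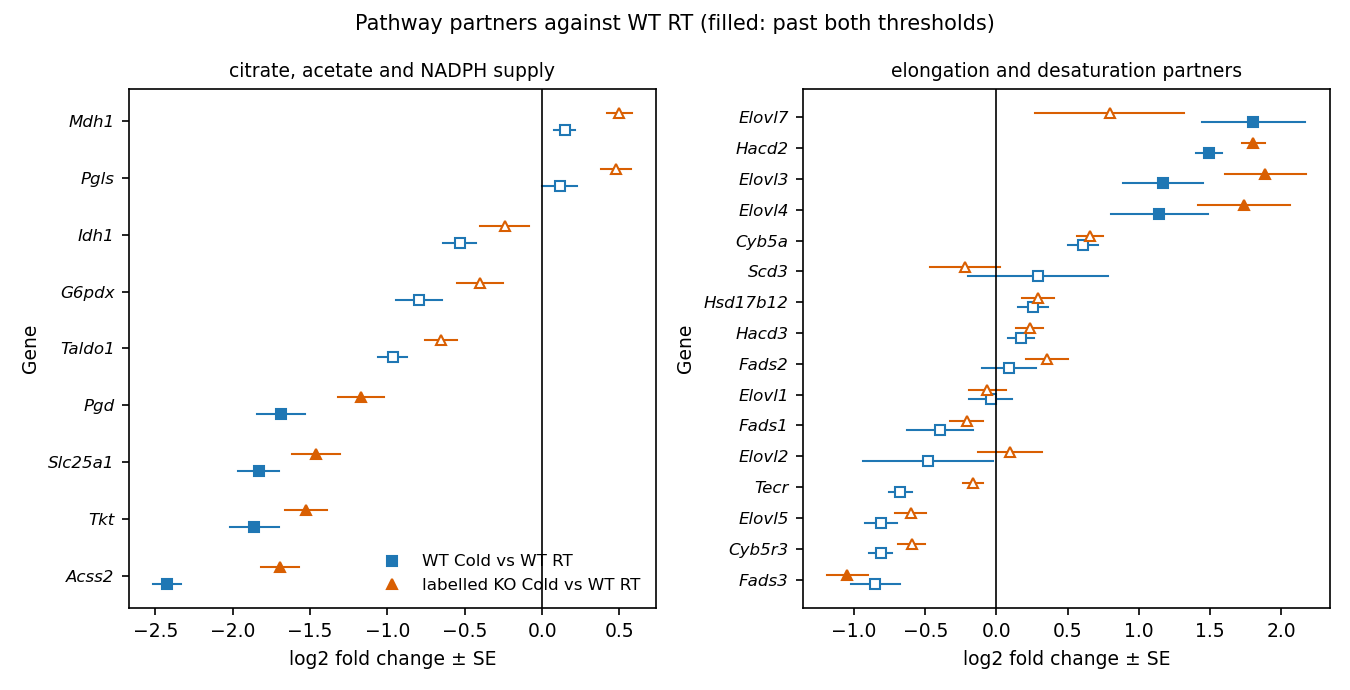
Log2 fold change and SE against WT RT for the 9 supply genes and the 16 elongation and desaturation partners tested, in WT Cold (squares) and in labelled KO Cold (triangles), with filled symbols past both thresholds. Acss2, Tkt, Slc25a1 and Pgd lie left of -1 in both groups, while Hacd2, Elovl3 and Elovl4 lie right of 1 in both.

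Genes that control the pathway were listed as regulators and as modulators of its carboxylases. Of 11 regulators, 1 was called lower in WT Cold and none higher, where 5.15% of all genes were called lower. This was Insig1, which holds SREBP precursors in the endoplasmic reticulum and is itself a SREBP target (limma, log2 fold change -1.17, SE 0.22, adjusted p = 0.00679). It was also called lower in labelled KO Cold (-1.02), where it missed the fold threshold without WT RT A (-0.89) or the C library of the cold group (-0.95). Of 5 modulators of the carboxylases and of malonyl-CoA, 1 was called lower and none higher in each comparison with WT RT. Of all genes, 5.15% were called lower in WT Cold and 7.58% in labelled KO Cold. Mlycd went the other way, with 134 ± 13.9 CPM in WT RT, 241 ± 19.4 in WT Cold and 226 ± 16.5 in labelled KO Cold (SD, n = 3). Without WT RT C 1 of the 5 was called higher in both comparisons, against 449 of 16679 and 492 of 16560 genes. So it was in labelled KO Cold without its A library, against 494 of 16560 genes. The gene called lower was Thrsp. Thrsp (Spot 14), a lipogenic protein induced by thyroid hormone and carbohydrate, measured 2681, 2925 and 2992 CPM in WT RT, 468, 388 and 427 CPM in WT Cold and 768, 681 and 601 CPM in labelled KO Cold. It fell in WT Cold (limma, log2 fold change -2.66, SE 0.099, adjusted p = 2.12e-05) and in labelled KO Cold (-1.87). Between the 2 cold groups the 3 labelled KO Cold libraries lay above all WT Cold libraries, and Thrsp passed on adjusted p and not on fold (limma, log2 fold change 0.79, SE 0.11, adjusted p = 0.0439). That adjusted p was 0.0559 with CPM scaling and ran from 0.0509 without the C library to 0.208 without WT Cold B, over 0.05 for each of the 6 libraries left out.

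Of 8 other known targets of ChREBP or SREBP1, 2 were called lower in WT Cold and none higher, against 5.15% of all genes called lower, with a list median of -0.26. That median was -0.49 without WT Cold C and -0.13 without WT RT A or WT Cold A. Pnpla3, a lipid droplet protein, fell by 2.39 and Aacs, acetoacetyl-CoA synthetase, by 1.66 on the log2 scale (limma adjusted p = 0.000796 and 0.00608). Both were called lower in labelled KO Cold too, at -1.49 and -1.95, and neither was called between the 2 cold groups, where Pnpla3 stood at 0.90 (adjusted p = 0.201 with limma, 0.0259 with DESeq2). Txnip, a glucose-responsive ChREBP target, had a log2 fold change of -0.34 in WT Cold against WT RT (adjusted p = 0.221), and of -0.83 in labelled KO Cold against WT RT (adjusted p = 0.0102), where it passed on adjusted p and not on fold. It passed the fold threshold there with CPM scaling or all 3 groups in the fit (-1.04) and without the C library of the cold group (-1.02), and in WT Cold its adjusted p was 0.0306 without WT Cold C. The separate mitochondrial pathway of fatty acid synthesis had 0 of 6 genes called by limma, edgeR or DESeq2 in any comparison, with 3 of 6 lower and none higher at an unadjusted p under 0.05 in WT Cold against WT RT, where 20.3% of all genes were lower by that rule. Acsf3, the mitochondrial malonyl-CoA synthetase, had the largest change there, at -0.73 (adjusted p = 0.00524), and Ndufab1, the mitochondrial acyl carrier protein, the largest in labelled KO Cold against WT RT, at 0.52 (adjusted p = 0.00347) and 0.32 with CPM scaling. Between the 2 cold groups all 6 had a positive log2 fold change, with a median of 0.29, and 5 had an unadjusted limma p under 0.05, against 7.83% of all genes. That count was 4 or 5 with a library left out, and 2 with CPM scaling or with all 3 groups in the fit, against 2.81% and 3.38% of all genes. The median was 0.17 under both. Cbr4, a subunit of the reductase of this pathway, had the largest difference, at 0.41 (adjusted p = 0.165). Over all 55 pathway genes tested besides the members, 4 were called higher and 8 lower in WT Cold against WT RT, where 2.99% and 5.15% of all genes were. In labelled KO Cold against WT RT 3 were called higher and 9 lower, against 3.01% and 7.58% of all genes. None of the 55 was called between the 2 cold groups by limma, edgeR or DESeq2. At an unadjusted limma p under 0.05, 18 of the 55 were higher and 2 lower between the 2 cold groups, against 7.83% and 7.49% of all genes. These counts depend on the scaling. With CPM they were 10 higher and 6 lower, against 2.81% and 15.6% of all genes, and with all 3 groups in the fit they were 9 and 7, against 3.38% and 17.2%.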

How the data were processed

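Brown adipose tissue RNA of 9 mice was sequenced. According to the study's methods, reads were trimmed, aligned with STAR and counted over exons with featureCounts, using uniquely mapped reads, and groups were compared with DESeq2. The submitters' processing notes name Trimmomatic 0.36, STAR 2.5.2b, Subread 1.5.2 and the genome build GRCm39. In each of 3 deposited tables, 1 per comparison, the authors gave a signal per gene and library, namely normalized counts, for which reads were divided by a size factor of the library that is specific to the table. The authors' log2 fold changes and p-values in the same tables were not used. All library columns were matched to a group, by the comparisons in which their codes occur, and none to a mouse, and 0 columns came from other samples.

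Whole reads were recovered from the steps of the deposited values, with 100% of 297306 values whole within 0.01 reads. As these are normalized values, limma 3.58.1 (R 4.3.3) served as the main test, with a mean-variance trend on log2(value + 1), fitted over all genes of a table with Benjamini-Hochberg adjustment. This scale understates the change of low genes. edgeR 4.0.16 and DESeq2 1.42.0 were run on the recovered reads, and the code was tested on simulated data. Levels across tables are CPM from recovered reads, and levels per kilobase use exon lengths of GENCODE M21 on GRCm38. Depth was similar among libraries. Mice lived with littermates of their own sex before assignment, and which of the 9 were littermates is not given in the sources used here. Ratios were compared by exact permutation of libraries, 9 tests in all. Alternatives covered thresholds, pseudocounts of 0.5 and 5, a mean of at least 50 normalized counts, tool, scaling, trend, the groups fitted together and leaving out each library.

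The 10 genes, the pathway lists and the marker lists were chosen with earlier results of these data known. Named pathway genes were at most 3 called genes per list and comparison, or else the gene of the list with the largest change, at 50 or more normalized counts on average, plus Insig1, Thrsp, Txnip, Elovl3 and Elovl5. Pgd, Fads3, Mlycd and, in WT Cold, Elovl4 fall outside this rule and were named after their values were seen. So were Mlx in WT Cold, Elovl7 in labelled KO Cold against WT RT, and the genes shown only in the partners plot. Of 57 pathway genes listed, 55 were in the tables.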

Additional observations from a re-analysis of the deposited data

How the results depend on the processing

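Of the 450 values of a gene under an alternative, 427 kept direction and side of the thresholds, 11 became called, 4 lost their call and 8 changed sign. The 4 losses are the Mlxipl values given above, and the 11 gains belong to Acacb, Me1 and Elovl6, 4 of them because the fold threshold was dropped. All 8 changes of sign lie between labelled KO Cold and WT Cold, among genes that were not called. There Scd1 was -0.057 with CPM scaling and with all 3 groups in the fit, -0.0019 without WT Cold B, -0.11 without WT Cold C and -0.094 without the A library of labelled KO Cold. Fasn was -0.098 without WT Cold B. Mlxipl was 0.14 without WT Cold C and 0.19 without that A library. The cause was not tested. The log2 ratio of Fasn to Acaca in WT Cold against WT RT ran from -0.052 to 0.078 with a library left out. Over the same omissions between the cold groups, Scd1 reached 0.30, Fasn 0.29 and Mlxipl -0.17 at the other end. The number of the 10 genes called lower ran from 7 to 10 in WT Cold against WT RT. It was 7 without WT RT C or WT Cold A, where 732 and 711 of 16679 genes were called lower. It was 10 with the fold threshold dropped, where 2356 (14.1%) were. In labelled KO Cold against WT RT it ran from 6 to 9. It was 6 without WT RT C or the A library of the cold group, where 1059 and 1233 of 16560 genes were called lower. It was 9 with the fold threshold dropped (2944 genes, 17.8%), CPM scaling (1022) or all 3 groups in the fit (1007 of 16006). Between the 2 cold groups none of the 10 was called under any alternative run, where 3 to 209 genes were. No paired analysis was possible because the columns carry no replicate numbers. With 3 libraries per group, no single ratio could reach an exact p under 0.1.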

Other observations

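Outside the pathway, 3 genes followed Fasn most closely across the 9 libraries, by root mean square difference between centred log2(CPM + 1) profiles over 8608 genes with a mean of at least 10 CPM over all 9, a description with no test. Slc25a48, a mitochondrial carrier, differed by 0.166, with 29.6 ± 4.18 CPM in WT RT, 6.75 ± 1.31 in WT Cold and 5.70 ± 1.18 in labelled KO Cold (SD, n = 3). Tspan18, a tetraspanin, differed by 0.220, with 159.6 ± 13.1, 41.4 ± 7.13 and 45.6 ± 3.97 CPM in the same order. Gbp9, a guanylate-binding protein, differed by 0.249, with 32.0 ± 4.69, 6.89 ± 0.29 and 6.04 ± 0.65 CPM. Slc25a48 and Gbp9 are below 10 CPM on average in both cold groups and passed the minimum through WT RT, where they are high, so the minimum favours genes with such a fall. All 9 points share depth and scaling, and the WT RT libraries carry another code prefix.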
